A study of Homo sapiens with 77 samples.

Results

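The comparison described here is the baseline difference between a pair of EZH2-mutant diffuse large B cell lymphoma (DLBCL) cell lines, SuDHL10 and KARPAS422, in cells that received only the solvent DMSO. It rests on 4 of the 77 samples of the series, 2 SuDHL10 and 2 KARPAS422 control libraries of an experiment with 16 RNA-seq libraries, and every gene of the deposited table was considered. Of 21455 genes in that table, 11647 had enough counts to be tested. The labels give both lines as DLBCL cell lines treated by DMSO, and the study describes both as carrying mutant EZH2. The other 12 libraries of the same experiment hold 2 libraries of each line with EPZ-6438, an inhibitor of EZH2, with VTP50469, an inhibitor of menin, or with both drugs, and they were used only to see whether the line difference was also present there. A line stands for the patient tumour it was grown from and for its years in culture, so differences between lines cannot be told apart from differences between donors. The study gives drug times that differ between the lines, and the time in DMSO, which is not stated, may differ likewise. The sources used here do not say whether the 2 libraries of a line came from separate cultures, and p-values then measure only the spread between these libraries, which may be technical.

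EZH2 is the catalytic subunit of Polycomb repressive complex 2 (PRC2), which places the repressive mark H3K27me3 on histone H3 and keeps developmental and differentiation genes off. In germinal center B cells, the activated B cells from which many DLBCL arise, EZH2 is abundant, and activating mutations of its catalytic domain hold genes of B cell exit and differentiation in a repressed state. Menin, the product of MEN1, tethers the methyltransferase MLL1, the product of KMT2A, to active promoters, where the complex places H3K4 methylation. The signalling genes of these cells run from the B cell receptor to NF-kB, and interferon acts on them through JAK kinases and STAT factors.

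The SuDHL10 libraries held 19840876 and 23396505 counts and the KARPAS422 libraries 12817176 and 18449323. KARPAS422 replicate 2 stood apart in breadth: 16956 genes were above 0 in it, against 13887 to 14289 in the other 3 libraries. Of 382 olfactory receptor genes, which B cells are not known to use, 90 were above 0 in KARPAS422 replicate 2 and 19 to 26 in the other 3 libraries. For some of the counts that rest on genes in the low range, the value without that library is therefore given too. For others, such as the developmental and cancer-testis lists, it is not. Levels are given as CPM, a gene's counts relative to its library total after scaling of the totals by TMM, a trimmed mean of log ratios, and fold changes as log2 of SuDHL10 over KARPAS422, so that a positive value is a higher level in SuDHL10. A gene is called higher or lower when its adjusted p is under 0.1 and its fold above 1.5 in edgeR's quasi-likelihood test. CPM is not divided by gene length, so levels are compared between lines and not between genes.

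Of the 11647 genes tested, 2430 were called higher in SuDHL10 and 2997 lower, which is 20.9% and 25.7% of the genes tested, and 6220 were not called. Every count of list members below is to be read beside these shares. Among the called genes, 527 of the higher and 839 of the lower differed by more than 8-fold. Scaling by library totals alone gave 1872 higher and 3557 lower, so that 34.5% of the called genes were higher in place of 44.8%, and it moved the median log2 fold change of all tested genes from -0.01 to -0.19. For 8997 genes, 77.2% of those tested, both libraries of one line lay above both of the other. The median standard error of a log2 fold change was 0.171.

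KARPAS422 cells with DMSO were also sequenced in an experiment of the series on the menin inhibitor MI-503, whose counts stand in a table of their own. CPM of those libraries are relative to library totals alone, without TMM. Of 9279 genes with at least 5 CPM in both of those KARPAS422 libraries, 506 were at 0 in all 16 libraries of the experiment described here and 1205 were at less than 1/4 of that level in its KARPAS422 controls. Of these 1205, 365 were tested, 93 of them called higher and 82 lower, and such genes are called under-counted. B2M, RPS9, IFI27 and KLF2 are among them. The mitochondrially encoded genes were at 0 throughout, for 13 of 13 in the table. A line difference of such a gene cannot be told apart from a difference in counting. The label rests only on the KARPAS422 levels of both experiments, so a difference between their KARPAS422 cells would also give it. Without the under-counted genes, 2337 genes were higher and 2915 lower. With the KARPAS422 libraries of the MI-503 experiment in place of the KARPAS422 controls, a fit that joins both tables, 26.9% of 13099 tested genes were higher and 38.6% lower in SuDHL10. Values from that fit, here and below, also hold any difference in counting between the tables.

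**Figure D1:**
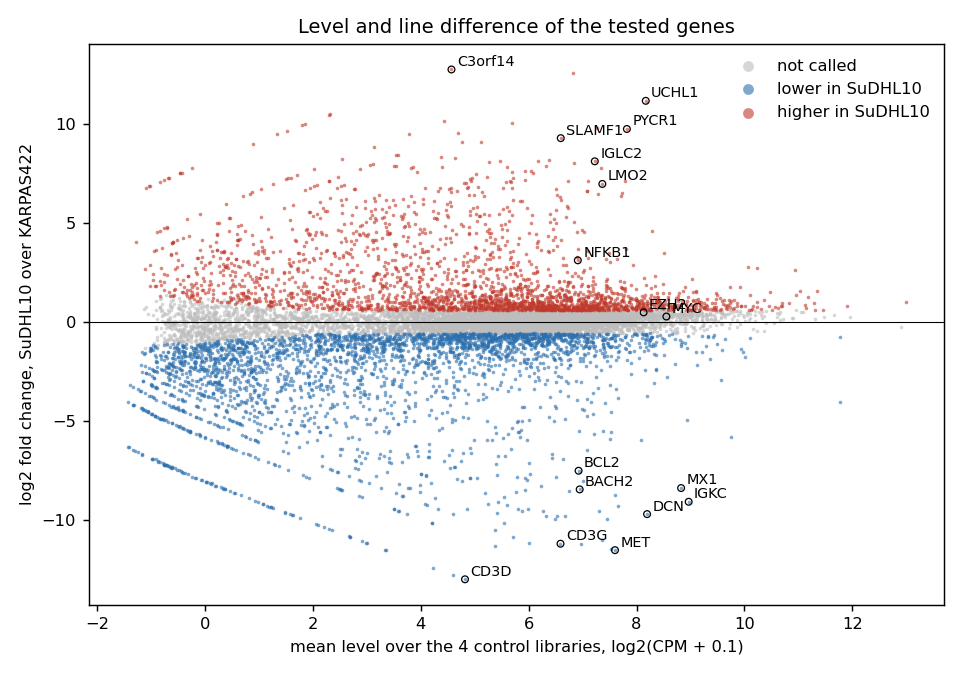
Each point is a tested gene, with Y-linked genes and XIST left out, placed by its mean level over the 4 control libraries as log2(CPM + 0.1) and by its log2 fold change of SuDHL10 over KARPAS422 on the vertical axis. Red points are the genes called higher and blue points those called lower in SuDHL10, with EZH2 and MYC near 0 and CD3D, MET and IGKC far below it, and the streaks at the lower left are genes with 0 or a few counts in SuDHL10, whose fitted fold change depends on the prior count.

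Of the genes that encode the drug targets neither EZH2 nor MEN1 was called, while the PRC2 subunit EED was lower in SuDHL10. EZH2, the PRC2 methyltransferase, was at 305 and 348 CPM in SuDHL10 and 253 and 215 CPM in KARPAS422, a difference that was not called (log2 fold change 0.48 ± 0.14 (SE), adjusted p = 0.0135) because its fold lay below 1.5; it was called higher without SuDHL10 replicate 1 (log2 fold change 0.63) or without KARPAS422 replicate 1 (0.68). EED, the subunit that binds H3K27me3 and stimulates EZH2, was at 84.5 and 87.4 CPM in SuDHL10 and 250.01 and 219 CPM in KARPAS422, with no overlap of the libraries (log2 fold change -1.45 ± 0.14 (SE), adjusted p = 6.09e-06). SUZ12, the scaffold subunit, was at 156 and 197 against 227 and 180.3 CPM and was not called. Of the list of PRC2 and H3K27 demethylase genes, 1 of 12 tested members was called higher and 4 were lower, with a median log2 fold change of -0.08 beside -0.01 for all tested genes. Without SuDHL10 replicate 1, 2 were higher and 3 lower. The lower members besides EED were JARID2, a PRC2 cofactor (-1.12 ± 0.22), and the H3K27 demethylases KDM6B (-0.87 ± 0.15) and KDM6A (-0.60 ± 0.15), where each value is a log2 fold change with its SE. The higher member was RBBP7, a histone-binding subunit (0.69 ± 0.13), which was not called with scaling by totals (0.51). KDM6A lost its call without SuDHL10 replicate 1 (-0.50) and without either KARPAS422 library (-0.55 and -0.58).

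MEN1 was at 101 and 84.0 CPM in SuDHL10 and 113 and 138 CPM in KARPAS422 and was not called (log2 fold change -0.44 ± 0.16), though it was lower with scaling by totals (-0.62). KMT2A was called higher by a small margin, at 164 and 178 against 119 and 107 CPM (log2 fold change 0.60 ± 0.14 (SE), adjusted p = 0.00391), and was not called with scaling by totals (0.42), without SuDHL10 replicate 2 (0.55) or without KARPAS422 replicate 2 (0.51). Of the menin-MLL and COMPASS list, the H3K4 methyltransferase complexes and their partners, 5 of 18 tested members were called higher and 1 lower (median 0.05). With scaling by totals 2 were higher and 2 lower. SETD1B, a catalytic subunit of another COMPASS complex, had the largest rise in the list (1.54 ± 0.17, but 0.53 and not called with the MI-503 experiment's libraries). The shared subunit DPY30 followed (1.23 ± 0.15). MLLT3, a reader of acylated histones that is fused to KMT2A in leukemia, was lower (-1.48 ± 0.28). Of the PRC1 genes, which encode the second Polycomb complex, 3 of 18 tested members were called higher and 3 lower (median -0.01), or 3 higher and 6 lower with scaling by totals. CBX7 was higher (1.71 ± 0.25) and PCGF1 lower (-1.68 ± 0.17).

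Several genes that the study names also differed between the untreated lines. MYB, a transcription factor of immature blood cells, was at 18.3 and 20.9 CPM in SuDHL10 and 2.35 and 2.09 CPM in KARPAS422 (log2 fold change 3.15 ± 0.22 (SE), adjusted p = 2.89e-07). IRF5, an interferon regulatory factor, was also higher, at 14.5 and 12.8 against 4.56 and 5.04 CPM (log2 fold change 1.503 ± 0.20). CD24, a surface glycoprotein of early B cells, was lower, at 92.8 and 101 against 720.2 and 609.5 CPM (-2.77 ± 0.15); it has near-identical pseudogene copies, and its counts are uncertain for that reason. The glutamine transporter SLC1A5 (1.18 ± 0.17) and the serine synthesis enzyme PSAT1 (0.66 ± 0.15) were higher, TSC1, a brake on mTORC1, was lower (-0.82 ± 0.14), and the alanine transaminase GPT2 was not called (0.45 ± 0.16). PSAT1 lost its call with scaling by totals (0.49) and without KARPAS422 replicate 2 (0.54), and GPT2 gained one without SuDHL10 replicate 2 (0.59). In a fit against the KARPAS422 DMSO libraries of the MI-503 experiment PSAT1 (-0.39), SLC1A5 (-0.15) and GPT2 (-1.03) were all on the other side of 0.

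Interferon-stimulated genes were mostly lower in SuDHL10, with some near 0 there and abundant in KARPAS422. In this list 6 of 43 tested members were called higher and 30 lower, beside 20.9% and 25.7% of all tested genes, and the median log2 fold change was -2.02. Without 4 under-counted members there were 6 higher and 26 lower (median -1.85). Many of these genes are switched on by the factor ISGF3, which binds the interferon-stimulated response element, and a short form of that element, GAAANNGAAA on either strand, was looked up in the 250 bases before each gene's start in RefSeq (GRCh38.p14). The promoters of 4 genes that were lower in SuDHL10 are shown because they hold the element more than once, with the matches in capitals and the bases in the direction of transcription.

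IFI6 (chr1:27672193-27672442, minus strand): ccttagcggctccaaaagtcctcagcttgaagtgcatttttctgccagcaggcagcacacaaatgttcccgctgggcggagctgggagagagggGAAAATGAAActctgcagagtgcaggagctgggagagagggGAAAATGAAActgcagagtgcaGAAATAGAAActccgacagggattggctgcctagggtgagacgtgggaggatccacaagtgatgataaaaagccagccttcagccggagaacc
DDX60L (chr4:168480493-168480742, minus strand): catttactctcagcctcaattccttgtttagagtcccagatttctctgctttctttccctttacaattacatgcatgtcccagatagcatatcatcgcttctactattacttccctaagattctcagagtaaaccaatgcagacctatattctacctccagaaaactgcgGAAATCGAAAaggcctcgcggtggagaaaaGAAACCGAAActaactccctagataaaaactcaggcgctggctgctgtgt
DDX60 (chr4:168318753-168319002, minus strand): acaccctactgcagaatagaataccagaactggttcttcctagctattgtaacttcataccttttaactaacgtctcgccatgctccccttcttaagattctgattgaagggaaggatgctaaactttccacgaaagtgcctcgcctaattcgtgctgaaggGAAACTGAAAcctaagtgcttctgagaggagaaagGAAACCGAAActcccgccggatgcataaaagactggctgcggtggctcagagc
IFI44L (chr1:78620198-78620447, plus strand): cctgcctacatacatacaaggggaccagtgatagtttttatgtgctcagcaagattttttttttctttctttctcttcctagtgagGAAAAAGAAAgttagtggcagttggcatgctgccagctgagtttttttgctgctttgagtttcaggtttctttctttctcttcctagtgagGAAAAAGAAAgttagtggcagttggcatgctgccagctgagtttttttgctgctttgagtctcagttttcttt

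The motif was found in 17 of the 34 tested interferon-stimulated genes with a promoter in the table, against 227 of 9367 tested genes (2.42%) and 839 of 27305 promoters in all (3.07%). It did not separate the list by direction: 12 of the 24 lower members with a promoter held it, 2 of 3 higher members and 3 of 7 members that were not called. A match is a description of letters and not of binding.

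MX1, a GTPase that blocks viral replication, was at 2.20 and 3.07 CPM in SuDHL10 and 902 and 908 CPM in KARPAS422 (log2 fold change -8.41 ± 0.20 (SE), adjusted p = 5.28e-10). IFI44 was at 0.165 and 0.889 against 231 and 195 CPM, and its paralog IFI44L at 0.165 and 0.355 against 75.0 and 55.9 CPM. The RNA helicase DDX60 was at 0.220 and 0.711 against 137 and 113 CPM and the adjacent DDX60L at 0.770 and 0.889 against 104 and 81.6 CPM, and IFI6, a mitochondrial protein, was at 3.13 and 2.89 against 258 and 278 CPM. In each of these 6 genes every KARPAS422 library lay far above every SuDHL10 library, and the log2 fold changes ran from -8.55 to -6.48. RSAD2, also called viperin, was lower as well (-5.88 ± 0.22). STAT2, a subunit of ISGF3, differed less, at 41.1 and 41.5 against 83.5 and 82.0 CPM (-1.004 ± 0.14). The 6 members called higher in SuDHL10 were IFIH1, the MDA5 sensor of double-stranded RNA (17.7 and 18.04 against 2.13 and 2.19 CPM), IFITM2 and IFITM3, near-identical membrane proteins that block viral entry, MX2, a relative of MX1 (0.70 ± 0.14, but 0.51 and not called with scaling by totals and -0.44 with the MI-503 experiment's libraries), IRF2, a factor that opposes IRF1 (1.65 ± 0.15), and IRF5. Toll-like receptor and nucleic acid sensing genes showed no common direction, since 3 of 21 tested members were called higher and 5 lower (median -0.29). Without SuDHL10 replicate 2 there were 5 higher and 3 lower and with scaling by totals 2 higher and 7 lower. CASP1, the inflammasome protease, was higher (3.20 ± 0.23), and the receptor TLR3 (-3.06 ± 0.64) and the DNA sensor CGAS (-1.06 ± 0.17) were lower.

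**Figure D2:**
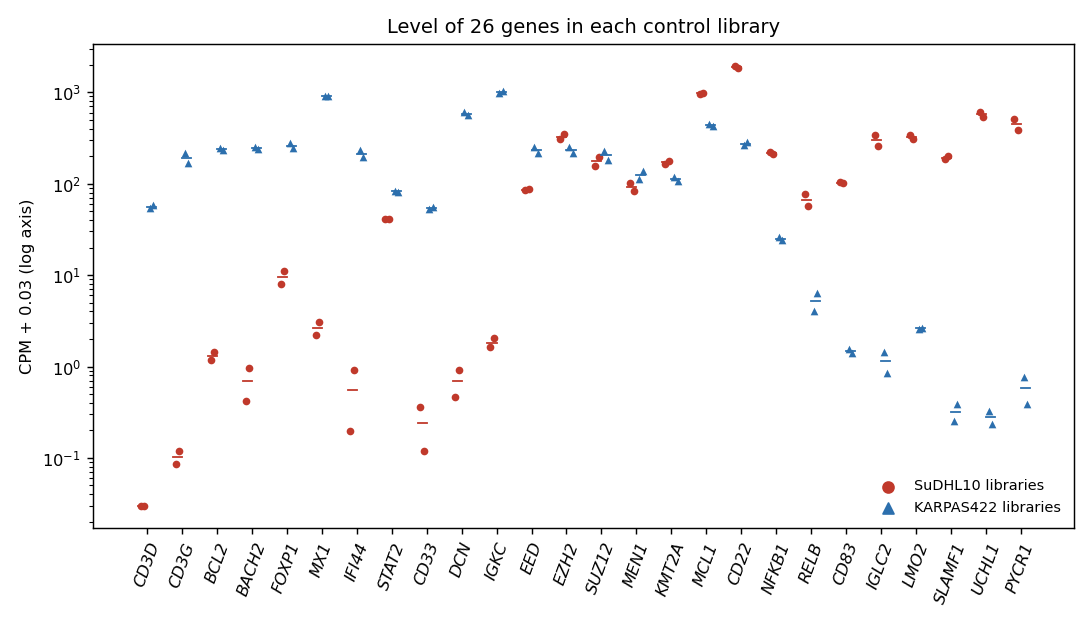
The level of 26 genes named in the text is plotted for each control library as CPM + 0.03 on a log axis, with red circles for the 2 SuDHL10 libraries, blue triangles for the 2 KARPAS422 libraries and short lines for the mean of each line. Replicates lie close together compared with the distance between lines for most genes, while EZH2, SUZ12, MEN1 and KMT2A differ little.

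Both lines expressed B cell markers, of which 12 of 12 listed were high enough to be tested. CD79A and CD79B, the signalling chains of the B cell receptor, were not called. CD22, an inhibitory lectin of B cells, was at 1939.7 and 1821 CPM in SuDHL10 and 265 and 282 CPM in KARPAS422 (log2 fold change 2.78 ± 0.13 (SE), adjusted p = 8.93e-09). MS4A1, which encodes CD20, was also higher, at 1949.8 and 2292 against 831 and 655 CPM (1.51 ± 0.15), as was CD74, the MHC class II invariant chain (0.97 ± 0.14). The factors PAX5 (-0.92 ± 0.13) and EBF1 (-1.30 ± 0.15), which hold B cell identity, the coactivator POU2AF1 (-1.80 ± 0.12) and VPREB3 (-1.71 ± 0.18) were lower. In all 3 of 12 tested members were called higher and 4 lower, with a median of 0.01.

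Among B cell transcription factors 10 of 34 tested members were called higher and 14 lower (median -0.28). BACH2, a repressor that keeps germinal center B cells from becoming plasma cells, was at 0.385 and 0.933 CPM in SuDHL10 and 251 and 241 CPM in KARPAS422 (log2 fold change -8.47 ± 0.27 (SE), adjusted p = 9.61e-10). FOXP1, which restrains the germinal center program, was at 7.92 and 11.1 against 277 and 243 CPM (-4.77 ± 0.20). On the other side, the ETS factor FLI1 was at 134 and 135 against 0.368 and 0.967 CPM (7.54 ± 0.27), and LEF1, a nuclear partner of beta-catenin in early B cells, was at 45.5 and 45.2 against 0.0735 and 0.662 CPM (6.74 ± 0.35). The lines therefore each expressed factors that were nearly silent in the other. Of germinal center genes, 10 of 23 tested members were called higher and 7 lower (median -0.05). Without 2 under-counted members there were 10 higher and 5 lower (median 0.48). LMO2, an adaptor of transcription complexes, was at 343 and 311 CPM in SuDHL10 and 2.57 and 2.60 CPM in KARPAS422 (log2 fold change 6.98 ± 0.19 (SE), adjusted p = 5.28e-10), and ASB13 (4.12 ± 0.20), KLHL6 (2.31 ± 0.15) and MME, which encodes CD10 (0.88 ± 0.16), were higher too. ITPKB, an inositol kinase, was lower (-1.69 ± 0.13). BCL6, the master repressor of the germinal center, was at 519.5 and 510.3 against 641 and 643 CPM and was not called.

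Genes of the activated B cell type of DLBCL were split, as 6 of 18 tested members were called higher and 7 lower (median 0.17; 7 higher and 5 lower without KARPAS422 replicate 2). CCDC50 was at 16.3 and 18.1 against 0.0735 and 0 CPM, and the cytokine IL16 (3.35 ± 0.34) was higher, while FOXP1, LIMD1 (-3.91 ± 0.20), the BAFF receptor family member TNFRSF13B (0 and 0 against 1.03 and 1.07 CPM) and PIM2 (-1.28 ± 0.16) were lower. IRF4, whose protein marks that type, was too low in both lines to be tested. Of plasma cell genes, 4 of 11 tested members were called higher and 5 lower (median -0.25), or 2 higher and 5 lower with scaling by totals. SDC1, the plasma cell antigen CD138, was at 0 and 0.133 against 36.4 and 40.3 CPM, and XBP1, the factor of secretory cells (-1.19 ± 0.15), and the chaperone HSP90B1 (-2.95 ± 0.14) were lower, whereas MZB1, a chaperone of immunoglobulin assembly, was higher at 203 and 158 against 2.21 and 2.09 CPM (6.40 ± 0.22).

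Light chain genes differed in opposite directions. IGKC, the kappa constant gene, was at 1.59 and 2.00 CPM in SuDHL10 and 972 and 1025 CPM in KARPAS422 (log2 fold change -9.10 ± 0.20 (SE), adjusted p = 4.10e-10), and IGLC2, a lambda constant gene, was at 339 and 257 CPM in SuDHL10 and 1.40 and 0.815 CPM in KARPAS422 (log2 fold change 8.12 ± 0.27 (SE), adjusted p = 1.25e-09). IGLL1, a part of the surrogate light chain of precursor B cells, was at 0 and 0.178 against 234 and 268 CPM, and VPREB1, its partner, was at 2.36 and 1.91 against 0 and 0.102 CPM in the opposite direction. In the list of immunoglobulin constant and surrogate light chain genes 5 of 10 tested members were called higher and 4 lower (median 0.79; 4 and 6 with the MI-503 experiment's libraries), and IGLC2, IGLC3 and IGLL5 are near-identical, so reads may be split among them. Fc receptor and Fc receptor-like genes were mostly lower, since 2 of 13 tested members were called higher and 7 lower (median -1.45), beside 20.9% and 25.7% of all tested genes. Without KARPAS422 replicate 2 there were 4 higher and 7 lower, and without another library or with DESeq2 1 was higher. FCGR2B, the inhibitory IgG receptor of B cells, was at 11.8 and 10.8 against 242 and 242 CPM (-4.42 ± 0.16), with near-identical FCGR2A and FCGR2C. FCRLB was at 32.2 and 28.5 against 1558 and 1817 CPM (-5.80 ± 0.16), and FCER2, the low-affinity IgE receptor CD23, was higher at 9.57 and 7.38 against 0.147 and 0.560 CPM (4.43 ± 0.43).

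Markers of other cell types were looked at because some appeared among the largest differences. Of 17 T and NK cell markers, 8 were tested, of which 3 were higher and 4 lower (median -0.87), and their summed level was 74.2 and 72.5 CPM in SuDHL10 and 367 and 337 CPM in KARPAS422. CD3D and CD3G, chains of the T cell receptor complex that lie next to each other on chromosome 11, carried most of that sum in KARPAS422. CD3D (chr11:118338954-118342705) had 0 counts in both SuDHL10 libraries and 53.7 and 58.8 CPM in KARPAS422, at least 768-fold more against a floor of 3 counts over both libraries, and CD3G was at 0.0550 and 0.0889 against 215 and 170.0 CPM. The KARPAS422 DMSO libraries of the MI-503 experiment, whose CPM come from another table and rest on library totals alone, held 44.5 and 44.3 CPM of CD3D and 122 and 117 CPM of CD3G. CD247 (39.5 and 33.5 against 91.9 and 97.4 CPM) and NKG7 (0.165 and 0.355 against 2.87 and 4.12 CPM) were also lower, while KLRD1, an NK receptor subunit (20.2 and 24.7 against 0 and 0.153 CPM), CD28 (3.19 and 3.69 against 0 and 0.0509 CPM) and TRAC (9.57 and 8.84 against 1.91 and 2.24 CPM) were higher in SuDHL10. KLRD1 was at 3.63 and 3.36 CPM in the MI-503 experiment's KARPAS422 libraries. CD2, at 0 and 0 against 0 and 0.0509 CPM, CD4, at 0.110 and 0 against 0.0735 and 0.713 CPM, and CD8A, at 0 and 0 against 0.0735 and 0.356 CPM, which define T cells, were at or near 0 in both lines.

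Of 16 myeloid markers 4 were tested, with 1 higher, FCN1 (2.36 and 1.599 against 0.147 and 0.153 CPM), and 1 lower, the lectin CD33 (0.330 and 0.0889 against 52.9 and 55.3 CPM, log2 fold change -8.05 ± 0.31), and a list median of -0.13. The 11 stromal and endothelial markers had 3 tested members and 2 lower ones, the matrix proteoglycan DCN, at 0.440 and 0.889 CPM in SuDHL10 and 612 and 559 CPM in KARPAS422 (log2 fold change -9.72 ± 0.25 (SE), adjusted p = 5.28e-10), and FN1 (-0.90 ± 0.22, but 3.78 with the MI-503 experiment's KARPAS422 libraries), and a median of -1.001. COL1A1, at 0 and 0.0889 against 0 and 0.458 CPM, and PDGFRB, at 0 and 0 against 0 and 0.967 CPM, were low in both lines. Of 13 epithelial markers 3 were tested and MUC1 was lower (0 and 0 against 0.956 and 1.07 CPM; list median -0.12), and the 1 erythroid marker tested, ALAS2, was not called (-1.18 ± 0.57). Summed levels of the myeloid, stromal and epithelial lists were 21.8 and 20.8, 5.77 and 7.24, and 54.7 and 48.0 CPM in SuDHL10. In KARPAS422 they were 75.1 and 78.8, 624 and 572, and 56.7 and 59.7 CPM. The KARPAS422 sums of the myeloid and stromal lists rested mainly on CD33 and DCN and not on a whole marker list, and the MI-503 experiment's KARPAS422 libraries held 782 and 763 CPM of DCN. The part of other cells in the line difference was not tested, and in bulk RNA fewer cells of a type and less RNA per cell cannot be told apart.

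NF-kB genes were higher in SuDHL10 for most members, with 19 of 33 tested genes higher and 7 lower and a median of 0.78, beside 20.9% and 25.7% of all tested genes. NFKB1, the precursor of the p50 subunit, was at 221 and 209.5 CPM in SuDHL10 and 25.96 and 23.9 CPM in KARPAS422 (log2 fold change 3.11 ± 0.15 (SE), adjusted p = 1.67e-08). NFKB2, the precursor of p52 in the alternative pathway, was at 89.6 and 69.1 against 6.25 and 6.26 CPM (3.66 ± 0.19), and its partner RELB was at 76.3 and 56.9 against 4.04 and 6.41 CPM (3.64 ± 0.24). RELA, the main activating subunit, was at 121 and 98.9 against 81.5 and 94.7 CPM and was not called. Target genes that also feed back on the pathway were higher: TNFAIP3, the deubiquitinase A20, at 22.8 and 20.9 against 0.0735 and 0.458 CPM (6.16 ± 0.36), and BIRC3 at 37.2 and 50.4 against 0.515 and 0.815 CPM (5.98 ± 0.28). BCL3, an atypical inhibitor that partners p50 and p52, was at 11.8 and 9.42 against 0.0735 and 0.102 CPM. Lower members included CFLAR, an inhibitor of caspase-8 (-2.65 ± 0.16), TRAF3, which holds the alternative pathway in check (-1.80 ± 0.14), and BIRC2 (-1.18 ± 0.16).

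B cell surface antigens were higher in 19 of 30 tested members and lower in 6 (median 1.24), beside 20.9% and 25.7% of all tested genes. SLAMF1, an adhesion receptor of the SLAM family, was at 187 and 199 CPM in SuDHL10 and 0.221 and 0.356 CPM in KARPAS422 (log2 fold change 9.29 ± 0.26 (SE), adjusted p = 5.28e-10), and of its relatives LY9 was at 55.8 and 51.5 against 0 and 0.153 CPM and CD48 at 145 and 144 against 0.221 and 0.713 CPM. The family had no common direction, since SLAMF6 was not called and CD84, which is not in the list, was lower, at 3.96 and 4.75 against 69.3 and 63.8 CPM (-3.92 ± 0.18). CD83, an activation marker, was at 104 and 102 against 1.54 and 1.37 CPM (6.14 ± 0.21). CD1D, which presents lipids, was lower at 0 and 0.0444 against 7.21 and 7.03 CPM, and CD37 (-1.55 ± 0.15) was lower too. Of costimulation and checkpoint genes, 8 of 17 tested members were called higher and 5 lower (median 0.25). BTLA, an inhibitory receptor, had 0 counts in KARPAS422 and 5.99 and 8.09 CPM in SuDHL10, at least 79.3-fold more, and the CD28 ligands CD80 (3.52 ± 0.55) and CD86 (3.64 ± 0.17) were higher. CD274, which encodes PD-L1 (-1.85 ± 0.21, but 3.74 with the KARPAS422 libraries of the MI-503 experiment), the death receptor FAS (-1.77 ± 0.16) and the complement regulator CD55 (-1.94 ± 0.18) were lower. Homing and adhesion genes ran in both directions: ITGAL, the alpha chain of LFA-1, was at 338 and 308 against 1.54 and 1.37 CPM (7.796 ± 0.21), its ligands ICAM1 (5.88 ± 0.25) and ICAM2 (6.29 ± 0.33) and the chemokine receptor CXCR4 (5.37 ± 0.25) were higher, and ITGB1, the common beta-1 chain, was lower at 14.6 and 15.7 against 375 and 329.9 CPM (-4.54 ± 0.16), as was PECAM1 (-3.38 ± 0.40). In that list 8 of 19 tested members were called higher and 7 lower (median 0.32), but 3 were lower without SuDHL10 replicate 1, 4 without SuDHL10 replicate 2 and 4 with DESeq2.

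**Figure D3:**
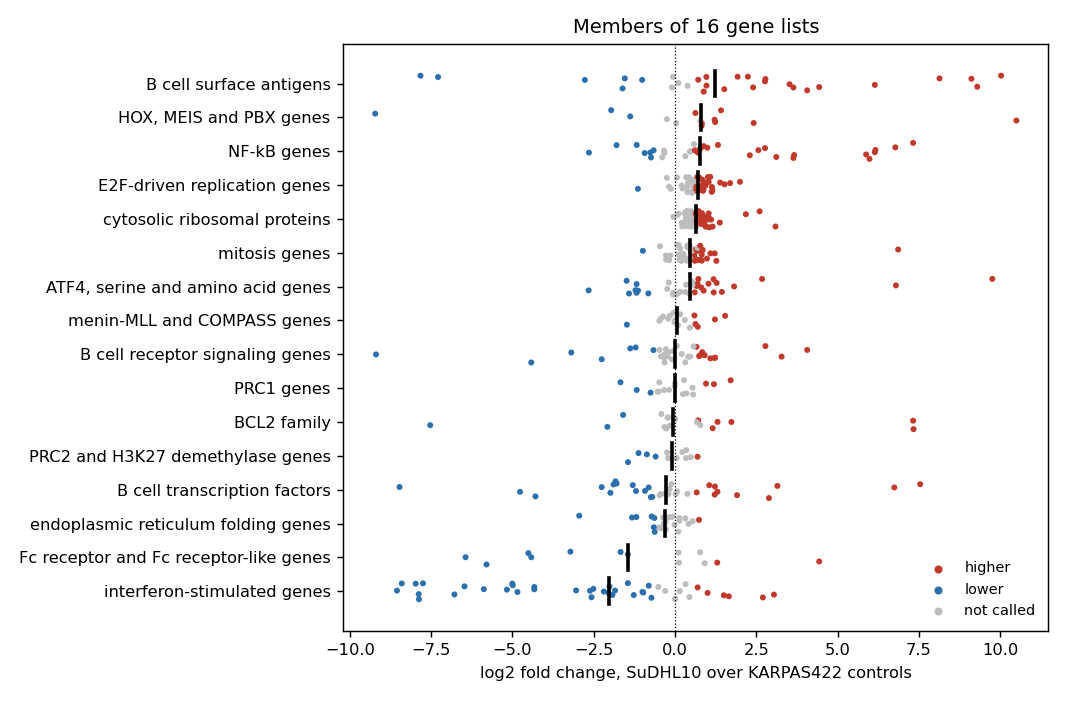
Each point is a tested member of 1 of 16 gene lists, placed by its log2 fold change of SuDHL10 over KARPAS422 controls, with red for called higher, blue for called lower and grey for not called, black bars for the list medians and a dotted line for the median of all tested genes. Interferon-stimulated and Fc receptor genes have the lowest medians shown, at -2.02 and -1.45, and B cell surface antigens the highest, at 1.24.

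B cell receptor signalling genes had no common direction (11 higher and 7 lower of 34 tested, median -0.0008; 9 and 9 with scaling by totals). The Src-family kinase FYN was at 0 and 0.222 CPM in SuDHL10 and 75.4 and 76.2 CPM in KARPAS422 (log2 fold change -9.20 ± 0.37 (SE), adjusted p = 3.59e-09) while the kinase SYK, which acts next in the pathway, was not called. RASGRP3, an exchange factor for Ras (3.28 ± 0.16), and the lipid kinase subunit PIK3CD (1.23 ± 0.16) were higher, and PRKCB, the protein kinase C of the pathway, was lower (-3.19 ± 0.21). Cytokine receptor and JAK-STAT genes split as well, with 7 higher and 8 lower of 22 tested (median 0.27). Without SuDHL10 replicate 2 or KARPAS422 replicate 2 there were 8 higher and 6 lower. IL21R was at 227 and 195 against 0.809 and 2.04 CPM (7.12 ± 0.28), IL4R at 206 and 177 against 2.43 and 2.80 CPM (6.18 ± 0.20), and JAK3, the kinase of the common gamma chain, at 15.7 and 14.8 against 0.368 and 0.509 CPM (5.06 ± 0.29). JAK2 was lower (0.990 and 0.711 against 12.1 and 9.93 CPM, -3.69 ± 0.30), together with the interleukin-10 receptor chain IL10RA (-2.02 ± 0.17).

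Genes of cell survival differed in both directions within the BCL2 family. BCL2, the antiapoptotic protein that venetoclax blocks, was at 1.15 and 1.42 CPM in SuDHL10 and 248 and 235 CPM in KARPAS422 (log2 fold change -7.53 ± 0.21 (SE), adjusted p = 5.28e-10). Of its antiapoptotic relatives, MCL1 was higher at 969 and 983 against 452 and 423 CPM (1.16 ± 0.12), BCL2A1 was at 10.2 and 11.2 against 0.0735 and 0.0509 CPM, and BCL2L1, which encodes BCL-XL, was not called (-0.42 ± 0.15). BMF, a BH3-only protein that promotes death, was at 75.2 and 72.3 against 0.368 and 0.509 CPM (7.34 ± 0.25). In the family 6 of 19 tested members were called higher and 3 lower (median -0.06), beside 20.9% and 25.7% of all tested genes. Without 4 under-counted members the family had 5 higher and 1 lower (median 0.00), with scaling by totals 5 higher and 4 lower, and with the MI-503 experiment's libraries 6 higher and 6 lower.

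More genes of DNA replication were called higher than lower in SuDHL10, by small folds. Of E2F-driven replication genes, 31 of 52 tested members were called higher and 1 lower (median 0.71), and with scaling by totals alone 24 were higher and 1 lower (median 0.53). GINS2, a part of the replicative helicase, was at 181 and 168 against 44.8 and 42.8 CPM (2.00 ± 0.15), and thymidine kinase TK1 at 304 and 223 against 69.0 and 93.7 CPM (1.69 ± 0.19), while the clamp loader subunit RFC3 was lower (-1.14 ± 0.15). Of mitosis genes 18 of 44 were higher and 1, the kinetochore gene NUF2 (-0.99 ± 0.17), lower (median 0.46; 11 and 2 with scaling by totals). MKI67, the proliferation antigen, was at 1036 and 1113 against 519 and 492 CPM (1.09 ± 0.12). Of cyclins, CDKs and CDK inhibitors 7 of 18 were higher and 2 lower (median 0.38). These counts were 3 higher and 2 lower with scaling by totals and 4 higher and 4 lower with the MI-503 experiment's libraries. The G1 cyclin CCND1 was at 5.94 and 4.49 against 0 and 0.153 CPM, and CDK6 was lower at 33.9 and 43.9 against 151 and 121 CPM (-1.80 ± 0.18). Among cytosolic ribosomal proteins 38 of 70 tested members were called higher and 0 lower (median 0.63), or 27 and 0 with scaling by totals (median 0.45). With the KARPAS422 libraries of the MI-503 experiment, counted in another table, the ribosomal list had 17 higher and 8 lower. A change of libraries and a change of counting cannot be told apart in these counts. The largest ribosomal difference in the DMSO comparison was that of RPL10, an X-linked subunit, at 3680.0 and 3049 against 528 and 581 CPM (2.60 ± 0.13), then RPS25 (2.18 ± 0.13), apart from RPS9, which was under-counted. Ribosomal protein genes have many near-identical pseudogenes, which makes their counts uncertain. Ribosome biogenesis genes were mostly not called, with 8 higher and 3 lower of 41 (median 0.24). These counts were 5 higher and 3 lower with scaling by totals, 12 higher and 2 lower without KARPAS422 replicate 1 and 17 higher and 4 lower with the MI-503 experiment's libraries. The higher members included the nucleolar proteins NCL (1.34 ± 0.11) and NOLC1 (1.44 ± 0.13) and the X-linked pseudouridine synthase DKC1 (1.28 ± 0.12). MYC itself was at 444 and 377 against 314 and 366 CPM and was not called, and of its network 2 were higher and 3 lower of 11 (median -0.02).

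In metabolism, ATF4 targets with serine and amino acid genes had 15 higher and 8 lower of 35 tested members (median 0.45), beside 20.9% and 25.7% of all tested genes. Without its 8 under-counted members the list had 10 higher and 8 lower (median 0.34), and with the KARPAS422 libraries of the MI-503 experiment the balance turned, to 4 higher and 18 lower. PYCR1, the mitochondrial enzyme that makes proline, was at 512 and 391 CPM in SuDHL10 and 0.735 and 0.356 CPM in KARPAS422 (log2 fold change 9.76 ± 0.29 (SE), adjusted p = 6.92e-10). SHMT2, the mitochondrial serine hydroxymethyltransferase, was at 492 and 400.4 against 204 and 233 CPM (1.03 ± 0.15, and 0.06 with the MI-503 experiment's libraries). The transporters SLC1A4 (-1.49 ± 0.14) and SLC6A9 (-1.41 ± 0.26) were lower. Of glycolysis and hypoxia genes 11 were higher and 5 lower of 30 (median 0.22). These counts were 7 higher and 6 lower with scaling by totals and 10 higher and 12 lower with the MI-503 experiment's libraries. BNIP3, a mitophagy receptor (74.6 and 73.8 against 2.57 and 3.11 CPM), was higher, and ENO2, the neuronal enolase (0.275 and 0.222 against 57.3 and 61.4 CPM), and NDRG1 (0.110 and 0.0889 against 1.62 and 2.29 CPM) were lower. Of cholesterol and fatty acid synthesis genes 8 were higher and 4 lower of 28 (median 0.38), or 6 higher and 9 lower with the MI-503 experiment's libraries. The fatty acid desaturase FADS2 was at 1.59 and 1.73 against 164 and 178 CPM (-6.67 ± 0.20), and the sterol enzyme NSDHL was higher (1.52 ± 0.15). Endoplasmic reticulum folding genes had 1 higher and 7 lower of 24 (median -0.30), HSP90B1, ATF6 (-1.33 ± 0.16) and XBP1 among the lower. There were 4 lower without SuDHL10 replicate 1 and 5 higher and 9 lower with the MI-503 experiment's libraries.

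Among gene families that Polycomb commonly covers, HOX, MEIS and PBX genes had 14 tested members of 46, with 8 higher and 3 lower (median 0.80), and 5 higher without SuDHL10 replicate 2. HOXA9, a menin-MLL target in leukemia, had 0 counts in KARPAS422 and 8.63 and 10.9 CPM in SuDHL10, at least 109.6-fold more. The other HOXA genes called differed less, such as HOXA7 at 98.6 and 93.2 against 60.8 and 63.4 CPM, whose call was lost with scaling by totals (0.45), and MEIS3 was lower at 0 and 0 against 3.82 and 4.23 CPM. Of 80 developmental transcription factors only 14 had enough counts to test, of which 5 were higher and 8 lower (median -1.502), and 3 higher when either SuDHL10 library was left out or with DESeq2. SOX9 was at 0 and 0.222 against 36.4 and 36.2 CPM and GATA4 at 0 and 0.0444 against 4.34 and 4.84 CPM, each higher in KARPAS422, and PAX9 was at 13.9 and 12.8 against 0 and 0.204 CPM and PAX8 at 57.6 and 59.4 against 0.147 and 1.07 CPM, higher in SuDHL10. Of cancer-testis genes, which are normally silenced outside the germ line, 5 were tested, with 2 higher and 3 lower (median -0.98; 3 and 2 with the MI-503 experiment's libraries). MAGEA1 was at 0 and 0 against 4.71 and 4.17 CPM and CSAG1 at 5.44 and 5.86 against 0.294 and 0.153 CPM, and the MAGEA genes are close copies of each other.

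DNA methylation and APOBEC genes were higher in 7 and lower in 2 of 19 tested members (median 0.08), beside 20.9% and 25.7% of all tested genes. The cytidine deaminases APOBEC3C, at 1.26 and 1.69 against 0 and 0 CPM, and APOBEC3G, at 21.6 and 18.04 against 0.294 and 0.509 CPM, were higher, but the MI-503 experiment's KARPAS422 libraries held 1.35 and 1.37 CPM of APOBEC3C. The methyltransferases DNMT3A (1.56 ± 0.35) and DNMT1 (1.03 ± 0.13) were higher too. TET1, which oxidises methylcytosine, was lower (-1.14 ± 0.22, but -0.38 and not called with those libraries). Replication-dependent histone genes had 8 higher and 5 lower of 17 (median 0.37). Without SuDHL10 replicate 1 or 2 they had 4 and 4 higher and 5 lower each. Their median was -1.11 with EPZ-6438, -0.86 with VTP50469 and -1.09 with both drugs, and their near-identical copies make each of them uncertain. Immediate early genes, which respond within minutes to a stimulus, were split into 10 higher and 10 lower of 24 (median -0.03). Without 6 under-counted members there were 9 higher and 6 lower (median 0.49). With the KARPAS422 libraries of the MI-503 experiment there were 5 higher and 14 lower. The nuclear receptor NR4A2 (2.75 and 2.80 against 0 and 0.153 CPM) was higher, and its relative NR4A1 (0.385 and 0.355 against 27.4 and 30.6 CPM), the phosphatase DUSP4 (0.825 and 0.755 against 174 and 189.6 CPM) and JUN (-2.92 ± 0.30) were lower.

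In MHC class I genes 1 of 11 tested members was higher and 5 were lower (median -0.47), and in MHC class II genes 2 of 9 were higher and 4 lower (median -0.07), beside 20.9% and 25.7% of all tested genes. Without 3 and 2 under-counted members, class I genes had 1 higher and 3 lower (median -0.27) and class II genes 2 higher and 2 lower (median 0.27). HLA-DRB1 had 2 counts over both SuDHL10 libraries, against 101 and 107 CPM in KARPAS422. HLA-DRB5 also had 2 counts, against 126 and 132 CPM. Neither was under-counted, as the MI-503 experiment's KARPAS422 libraries held 271 and 275 CPM of HLA-DRB1 and 89.9 and 96.2 CPM of HLA-DRB5. HLA-C was at 0 and 0 against 19.9 and 19.8 CPM, but the same line held 416 and 408 CPM of it in the MI-503 experiment, and HLA genes are polymorphic and close copies of each other, which makes their counts uncertain.

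A set of genes was on in one line and near 0 in the other, which was defined as at most 3 counts over both libraries of a line and at least 5 CPM in each library of the other. There were 42 such genes near 0 in KARPAS422 and 75 near 0 in SuDHL10. The first count depended on KARPAS422 replicate 2, without which it was 156, and the second rose to 131 without SuDHL10 replicate 2. Those near 0 in KARPAS422 included TES, a focal adhesion protein, at 95.4 and 111 CPM in SuDHL10 against 0 and 0.153 in KARPAS422, C3orf14 (45.5 and 48.9 CPM against 0 counts, at least 526-fold), SLITRK5, a neuronal adhesion protein (40.8 and 44.7 against 0 and 0.0509 CPM), TGFBR2, the type II receptor of TGF-beta (27.3 and 26.97 against 0 and 0.0509 CPM) and the tumour suppressor candidate TUSC1 (25.3 and 20.6 against 0 and 0.102 CPM). In the MI-503 experiment 36 of the 40 that its table holds were also under 1 CPM in both KARPAS422 libraries, and the 2 at 5 CPM or more there were WDR81 and CBS. Both meet the definition of under-counted through that same difference, so the label does not account for it. In SuDHL10, WDR81 was at 14.1 and 8.57 CPM and CBS at 8.25 and 6.53 CPM. Those near 0 in SuDHL10 included TBXT, the notochord factor brachyury, at 0 and 0.0889 against 78.7 and 87.8 CPM, OPLAH, an enzyme of glutathione turnover (0.110 and 0.0444 against 48.8 and 66.7 CPM), MORC4 (0 counts against 38.8 and 35.9 CPM, at least 503-fold lower) and the kinase RPS6KA6 (0 and 0.0444 against 40.7 and 32.7 CPM). Of the 72 that the MI-503 experiment also lists, 44 were at 5 CPM or more in both KARPAS422 libraries there and 6 were under 1 CPM. In the 6 drug-treated libraries of the same line, 73 of the 75 genes stayed under 1 CPM in SuDHL10 and 31 of the 42 in KARPAS422. Counted anew in the libraries with both drugs, 9 genes were near 0 in KARPAS422 and 100 in SuDHL10.

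Among the largest folds outside those sets, UCHL1, a deubiquitinase of neurons and germinal center cells, was at 610.2 and 542 CPM in SuDHL10 and 0.294 and 0.204 CPM in KARPAS422 (log2 fold change 11.18 ± 0.25 (SE), adjusted p = 4.12e-10). BTNL9, a butyrophilin-like protein, was at 304 and 307 against 0.0735 and 0.509 CPM (9.83 ± 0.31), and the protease PRSS21 at 53.8 and 44.2 against 0.0735 and 0.204 CPM. In the other direction, MET, the receptor of hepatocyte growth factor, was at 0.0550 and 0.178 CPM in SuDHL10 and 406 and 370.0 CPM in KARPAS422 (log2 fold change -11.55 ± 0.29 (SE), adjusted p = 5.28e-10). MYBPH was at 0 and 0.222 against 335 and 405 CPM, and PLEKHA5 at 0.165 and 0.133 against 352 and 301 CPM. In each of these genes the libraries of the lines were separated by 2 or more orders of magnitude.

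By chromosome, the median log2 fold change of tested genes lay between -0.09 and 0.23 except on chromosome 14, at -0.60 over 379 genes, and chromosome 18, at -0.58 over 164 genes. On chromosome 14, 39 genes were higher and 187 lower (10.3% and 49.3%), and on chromosome 18, 17 were higher and 79 lower (10.4% and 48.2%), beside 20.9% and 25.7% of all tested genes. BCL2 lies on chromosome 18 (chr18:63123346-63320090). The medians of these chromosomes were also the lowest with scaling by totals, at -0.78 and -0.76, and in the drug-treated libraries. Windows of 20 neighbouring tested genes, picked after their values were seen, showed shorter stretches. On Xq, from DRP2 to TCEAL3 (chrX:101219786-103609927), 15 of 20 genes were lower with a median of -6.65. From IDH3G to SLC10A3 (chrX:153785768-154490629), 18 of 20 were higher with a median of 1.79, and RPL10 (chrX:154398065-154402339) lies in it. The X-linked genes DKC1 and IKBKG, an NF-kB regulator (2.30 ± 0.23), lie beyond its end. The window on chromosome 6 that ends at MYB (chr6:129576132-135219172) had 13 higher genes and 1 lower (median 2.24). DNA copy number was not measured in these samples, and its part in these values was not tested.

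**Figure D4:**
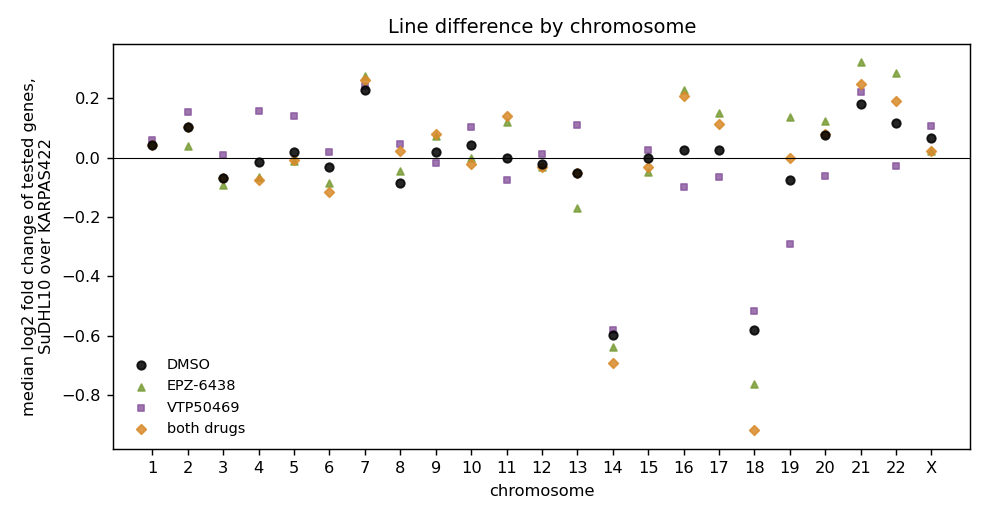
The median log2 fold change of SuDHL10 over KARPAS422 is plotted for the tested genes of each chromosome, in DMSO libraries (black circles) and in libraries with EPZ-6438 (green triangles), VTP50469 (purple squares) or both drugs (orange diamonds). Chromosomes 14 and 18 lie below the rest in each condition, at -0.60 and -0.58 in DMSO.

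The line difference was then measured in drug-treated libraries, which share no sample with the DMSO comparison. With EPZ-6438, 24.2% of 11976 tested genes were higher and 27.9% lower in SuDHL10. With VTP50469 these shares were 21.1% and 29.5% of 11987, and with both drugs 24.8% and 32.1% of 12514. By the study's account drug exposure was longer in KARPAS422 than in SuDHL10, so a line difference under drug also holds a difference in time. How long the control cells were kept in DMSO is not stated, so the DMSO comparison may hold that difference as well. Of the 2430 genes higher in DMSO, 2102 were also called higher with EPZ-6438 (86.5%, and 72.6% of the EPZ-6438 list), 1997 with VTP50469 (82.2% and 78.9%) and 1681 with both drugs (69.2% and 54.2%). Of the 2997 lower genes, 2529 (84.4% and 75.7%), 2645 (88.3% and 74.9%) and 2496 (83.3% and 62.2%) were called lower again. In all 4 conditions 1389 genes were higher and 2169 lower. Calls in the opposite direction were few: 44 genes higher in DMSO were lower with both drugs and 3 the reverse, and with a single drug there were 2 to 11 each way.

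Several of the largest named differences kept their direction under each drug. BCL2 had log2 fold changes of -7.14 with EPZ-6438, -7.56 with VTP50469 and -7.71 with both drugs, beside -7.53 in DMSO. FYN was at -6.93, -8.75 and -5.62, and UCHL1 at 8.85, 10.14 and 10.11. LMO2 was at 5.59, 5.77 and 3.79 and NFKB1 at 2.47, 3.40 and 3.15. EED stayed lower in SuDHL10, at -1.39, -1.27 and -1.07. MYB was at 1.90, 3.92 and 2.74, and MX1 at -9.04, -9.84 and -9.24. The level behind the MX1 values was 959 and 914 CPM in KARPAS422 DMSO libraries and 2889 and 2490.2 CPM with both drugs, with all 16 libraries scaled together. In SuDHL10 it was 2.34 and 3.23 CPM with DMSO and 3.94 and 4.90 CPM with both drugs. IFIH1 and MX2, which were higher in SuDHL10 with DMSO, were lower there with both drugs, at log2 fold changes of -1.31 and -2.09.

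For interferon-stimulated genes the median line difference was -2.74 with EPZ-6438, -3.21 with VTP50469 and -3.80 with both drugs, beside -2.02 in DMSO. For Fc receptor genes it was -2.31, -2.10 and -3.42, and for E2F-driven replication genes 0.83, 0.83 and 1.51. The median of B cell surface antigens was smaller under drug, at 0.85, 0.77 and 0.53, and that of HOX, MEIS and PBX genes was 0.49, 0.58 and -0.11. Tested members differ between conditions, and the change of a median between conditions was not tested.

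**Figure D5:**
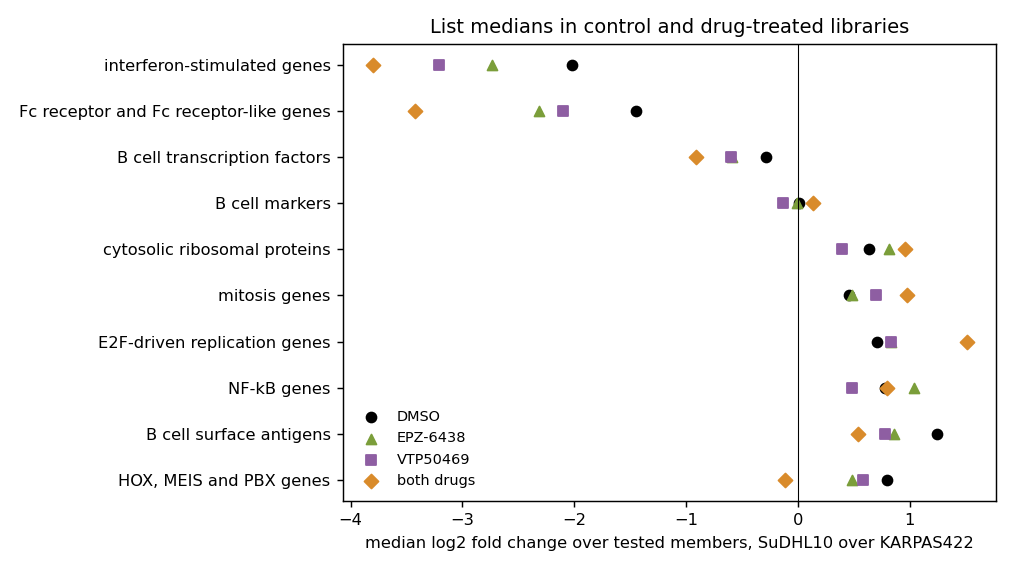
The median log2 fold change of SuDHL10 over KARPAS422 over the tested members of 10 gene lists is shown for DMSO libraries (black circles) and for EPZ-6438 (green triangles), VTP50469 (purple squares) and both drugs (orange diamonds). The interferon-stimulated list runs from -2.02 in DMSO to -3.80 with both drugs, while the median of B cell markers stays near 0.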

How the data were processed

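RNA was extracted with an AllPrep kit per the labels, whereas the study's methods name Trizol. By the study's methods, ribosomal RNA was depleted before sequencing. Alignment by the authors used HISAT2 (2.1.0) on hg38, and featureCounts (1.6.1) assigned reads to genes, so the deposited table holds raw counts that were not normalized. CASAVA (1.7) and Picard (2.23.1) are further tools in the submitters' processing notes. For strand, gene annotation and multiply matching reads nothing is stated, and reads of near-identical or overlapping genes may be mixed.

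The members and the gene lists were chosen with earlier results of these data known. Libraries were grouped by the labels' line and treatment. Genes of the deposited count table were filtered with filterByExpr (a minimum count of 10), scaled by TMM and tested in the 4 DMSO libraries with edgeR's quasi-likelihood test (4.0.16, limma 3.58.1, R 4.3.3) with Benjamini-Hochberg adjustment over all tested genes. This differs from the study's DESeq2, which was run as an alternative (1.42.0). The SE of a log2 fold change was taken as its size divided by the square root of the F statistic, and n is 2 libraries per line throughout. Lists are given by counts and medians, with no set test. Counts were also simulated at the mean levels and depths of these libraries, with the same dispersion for every gene. In them 47 and 50 of 50 genes changed 4-fold down and up were called, 27 of 49 changed 2-fold in either direction, and 7 of 11245 unchanged genes. The real replicates differed in spread, with an SD of the log2 replicate difference of 0.34 in SuDHL10 and 0.54 in KARPAS422. These shares therefore describe the simulated setting and not the real counts.

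Genes were named by a rule that gives 308 names: the genes the study follows, the 15 highest and 15 lowest folds among called protein-coding genes with at least 10 CPM in the higher line, up to 5 called members of each list in its main direction and up to 3 in the other, and the 15 most abundant genes near 0 in each line. Which of them carry values in the text was chosen with the values known. ALAS2, BCL2L1, BCL3, BCL6, CD2, CD37, CD4, CD80, CD84, CD8A, COL1A1, DDX60, DNMT3A, IFI44, IFI44L, IKBKG, IL16, JUN, MME, MX2, MYC, PDGFRB, RELA, RELB, SHMT2, SLC6A9 and STAT2 lie outside the rule or stand in the text as markers that define a list, and were chosen after their values were seen. Gene positions and promoters are from RefSeq (GRCh38.p14, 11331 of the 11647 tested genes matched), counted from 1. A chi-square comparison of replicate counts gave 16.6 per gene in SuDHL10 and 12.2 in KARPAS422; both differ by more than sampling noise, and each library was counted separately. Alternatives were the scaling, the filter, the thresholds, depth, the replicate block, leaving out each library, all 16 libraries in 1 fit, the drug-treated libraries and the KARPAS422 DMSO libraries of the MI-503 experiment. The crossed block and the removal of under-counted genes were chosen after seeing the data. Y-linked genes, XIST and immunoglobulin variable segments are not named, and a few other genes are not reported here.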

Additional observations from a re-analysis of the deposited data

How the results depend on the processing

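The counts of 2430 higher and 2997 lower genes stayed within 1.5 times under RLE size factors (2418 and 3010), library totals (1872 and 3557), no filter (2754 and 3383), DESeq2 (2262 and 2684), libraries thinned to the lowest total (2280 and 2827) and all 16 libraries in 1 fit (2304 and 3656). Leaving out 1 library at a time gave 2304 to 2774 higher and 2477 to 3830 lower. A stricter call (adjusted p under 0.05 and fold above 2) left 1467 higher and 2151 lower, and the KARPAS422 DMSO libraries of the MI-503 experiment, from another table, gave 3520 higher and 5050 lower. Genes near 0 in KARPAS422 (42) numbered 84 at up to 10 counts, 69 at 1 CPM or more, 77 with the MI-503 experiment's libraries, 26 with VTP50469, 9 with both drugs and 42 to 156 without 1 library. Genes near 0 in SuDHL10 (75) numbered 144, 198 and 798 under the first 3 of these and 77 to 131 without 1 library. For 506 genes at 0 in all 16 libraries here, the KARPAS422 libraries of the MI-503 experiment held at least 5 CPM. In the 798, and in the 5050 lower genes, a line difference cannot be told apart from such a difference in counting. The cause of these moves was not tested.

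The labels do not say whether same-numbered libraries were prepared as pairs. Their deviations had a correlation of -0.20 over genes, which cannot settle this with 2 libraries per line. A replicate block gave 2386 higher and 2864 lower genes, and changed no call of a gene with values in the text. The crossed pairing gave 2457 and 2975.

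Of 3070 values of named genes under alternatives, 2981 kept direction and call, 55 lost the call, 19 gained it and 15 changed sign. With the KARPAS422 libraries of the MI-503 experiment these were APOBEC3C (-0.057), CD274 (3.74), FN1 (3.78), GPT2 (-1.03), MX2 (-0.44), PSAT1 (-0.39) and SLC1A5 (-0.15). With EPZ-6438 they were JUN (0.016) and MX2 (-0.60). With VTP50469 it was MX2 (-0.996). With both drugs they were CASP1 (-0.58), IFIH1 (-1.31), MME (-0.072), MX2 (-2.09) and XBP1 (0.50). The cause was not tested. Genes within reach of the 1.5-fold limit, or at a few counts, are limited by depth and by 2 libraries per line.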
